A study of Mus musculus with 6 samples.

Results

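The inhibitor of apoptosis genes Xiap, Birc2, Birc3, Birc5 and Birc6, and the genes of their mitochondrial antagonists Diablo and Htra2, were followed through an RNA immunoprecipitation on arrays. All non-control probes that carried the name of 1 of these 7 genes were taken, with Xiap under its older name Birc4. This gave 11 of the 41174 probes on the array, and 8 of them, covering all 7 genes, were bright enough to be tested. Birc2, Birc5, Birc6 and Htra2 were lower in the DAZL immunoprecipitate than in total RNA and Diablo was higher, after each array was scaled to its 75th percentile. Those 4 lower calls depended on the scaling: with spike-in probes none was kept and Birc5 turned to 0.11, with the median of all probes 1 was kept, that of Birc2, and in the authors' deposited table Birc2, Birc5 and Birc6 have the opposite direction. The higher call of Diablo was kept in 15 of 19 alternative analyses. It was lost whenever 1 of the 4 arrays compared was left out, with differences of 0.74 to 0.99. Under the scaling to the 75th percentile, Birc2 and Birc6 were also lower, and Diablo also higher, in the control PABP1 immunoprecipitate. Birc2 and Diablo were not shown to differ between the 2 immunoprecipitates under that scaling. Of the 3 Xiap probes, 2 were measurable in both DAZL immunoprecipitates but in neither input, a difference that depended on the background correction.

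The study asked which RNAs the RNA-binding protein DAZL holds in germ cells. The cells were mouse primordial germ cells made in vitro, of a mixed C57BL/6 and 129SV background, from embryonic stem cells that express a DAZL protein fused to GFP and a V5 tag. The stem cells came from the V6.5 line, were freed of feeder cells and were kept in differentiation medium for 12 days. Cells were crosslinked with ultraviolet light, lysed and immunoprecipitated, and the RNA was treated with proteinase K, extracted, amplified and labelled with Cy3.

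There were 3 groups of 2 arrays, all from these tagged cells after 12 days. Total input was RNA with no antibody. The PABP1 IP was RNA recovered with an antibody to PABP1, the poly(A)-binding protein, which the study used as a control. The GFP IP was RNA recovered with an antibody to GFP, and so with the tagged DAZL. A mock precipitation and cells without the tag were not analysed here, and the promoter that drives the tagged protein is not given in the sources used here. The labels do not say whether the 2 replicates of a group came from separate cultures, so p-values measure the spread between these arrays, which may be technical. The labels name no sort for the germ cells, and in bulk RNA of this kind fewer cells of a type and less RNA per cell cannot be told apart.

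As background, inhibitor of apoptosis proteins share the BIR domain, a small zinc-binding fold. XIAP uses its BIR domains to block the caspases that carry out apoptosis, the cell death programme that removes many primordial germ cells. The cellular inhibitors encoded by Birc2 and Birc3 are ubiquitin ligases that act mainly at the TNF receptor, where they mark RIPK1, and in the control of NF-kB. Survivin, encoded by Birc5, works chiefly in cell division, within the chromosomal passenger complex. BIRC6 is a very large ubiquitin-conjugating protein that marks caspases and the antagonists for degradation. Diablo (also Smac) and the protease Htra2 (also Omi) sit in mitochondria, and once released into the cytosol they bind BIR domains and free the caspases.

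Signals are given here as the processed signal of a probe divided by the 75th percentile of its array, so that a value of 1 is the signal at that percentile. The percentile itself lay between 61.3 and 156 signal units, and between 41.1% and 52.0% of probes were well above background on an array, the scanner software's own call. Arrays of the same group correlated with r between 0.980 and 0.991 over the probes, and arrays of different groups with r between 0.861 and 0.923. The tagged gene checked the labels: Dazl was 3.80 ± 0.27 (limma SE, 2 arrays a group) log2 units higher in the GFP IP than in the input for its brighter probe, with an adjusted p of 0.00142. Pabpc1, which encodes PABP1, was not shown to differ between the PABP1 IP and the input (-0.14 ± 0.69, adjusted p = 0.876). Of 12 primordial germ cell markers with a probe, 11 were well above background on both input arrays, and Ddx4 was not. All 4 probed markers of undifferentiated stem cells, 7 of 9 of cardiac and smooth muscle and 5 of 6 of fibroblasts were also measurable there. The summed scaled signal of the muscle markers was 51.6 to 70.7 in the input, 89.2 to 110 in the PABP1 IP and 16.6 to 28.5 in the GFP IP. That of the fibroblast markers was 93.1 to 127, 102 to 121 and 31.7 to 56.0 in the same order, and that of the germ cell markers, which include Dazl itself, was 139 to 140, 334 to 359 and 200 to 219. Stem cell markers summed to 504 to 511, 323 to 353 and 587 to 594, neural markers (4 of 6 measurable) to 19.8 to 21.1, 6.28 to 8.71 and 24.6 to 25.0, and endothelial and blood markers (1 of 6) to 1.73 to 2.08, 1.08 to 1.32 and 7.91 to 8.58. Visceral endoderm markers (2 of 8) summed to 1.41 to 1.49, 3.27 to 3.47 and 1.39 to 1.42. Each sum is carried by its brightest markers and need not hold for the rest of its list. Between the PABP1 IP and the input, the bright germ cell markers Pou5f1 and Ifitm3 rose by 1.49 and 1.72 log2 units. Dazl (-1.82), Prdm1 (-1.24), Kit (-0.67), Ddx4 (-0.58) and Tfap2c (-0.31) went the other way. The endothelial and blood sum follows Pecam1, its only marker measurable in the input, which was 2.30 higher in the GFP IP. The part of the other cell types in the differences below was not tested.

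Of the 11 probes, 3 failed the filter, under which a probe had to be well above background on the 2 arrays of some group. The third Xiap probe, A_51_P424893, was above background on none of the 6 arrays, with scaled signals between 0.0145 and 0.0555. The other Birc3 probe, A_52_P434055, was above background only on PABP1 IP array 1, at 0.167. The other Diablo probe, A_52_P244034, was above background only on input array 2, at 0.176. These 3 probes were not tested. Where each probe lies on its transcript is not given in the sources used here, so the disagreement between probes of Xiap, Birc3 and Diablo cannot be assigned to an isoform.

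**Figure D1:**
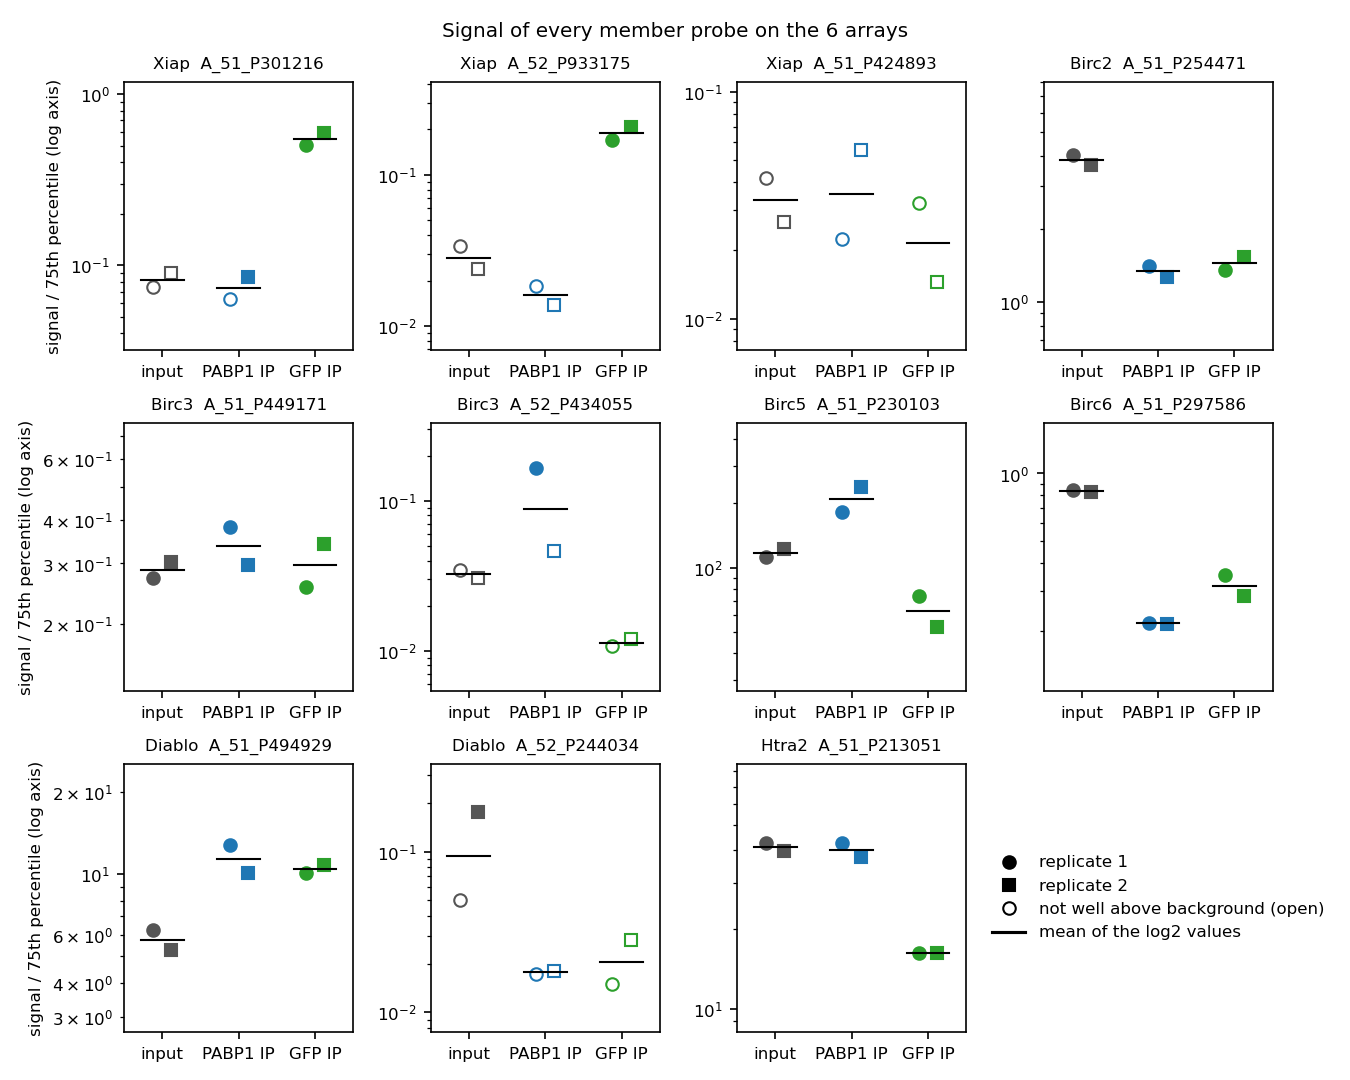
Signal of each of the 11 probes divided by the 75th percentile of its array (log axis, unitless) in the 2 arrays of each group. Circles are replicate 1, squares replicate 2, open symbols are not well above background, and black lines are means of the log2 values. Xiap A_51_P301216 and A_52_P933175 are filled on both GFP IP arrays and open on both input arrays, while Birc5 and Htra2 are the brightest members in every group.

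Birc5 was the brightest probe of the 7 genes, followed by Htra2, Diablo and Birc2. Its input signal was 112 and 122, that of Htra2 42.6 and 39.9, of Diablo 6.25 and 5.25, and of Birc2 4.03 and 3.66. Birc6 lay below the 75th percentile at 0.842 and 0.825, and Birc3 at 0.272 and 0.303. These are brightnesses of different probes and give no order of transcript abundance.

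Xiap encodes the member with the most direct hold on caspases. Probe A_51_P301216 read 0.0747 and 0.0897 in the input, 0.0637 and 0.0852 in the PABP1 IP, and 0.505 and 0.591 in the GFP IP. Both GFP IP arrays stood above the other 4, which overlapped. Against the input the fitted difference was 2.74 ± 0.22 log2 units (limma, adjusted p = 0.00162). Of the 3 groups, only the GFP IP had this probe above background on both arrays, so it was tested because it was high there, and its p-value is to be read with that in mind. With no filter, and the p-values adjusted over all 41151 probes with a value on every array, the adjusted p was 0.00886. Since the probe was above background on neither input array, the fold is given as a bound. Under the scanner software's background subtraction, the GFP IP was at least 4.51-fold higher. Here and below, a fold given as at least some value holds for that subtraction alone. Another background correction, described below, lowered the difference to 0.26 log2 units. The bound sets the mean of the GFP IP arrays against the mean of, on each input array, the higher of the probe's own signal and the lowest signal of any probe well above background. Probes brighter than this lowest signal could still miss that flag, so the bound is not strict. Against the PABP1 IP, where 1 of 2 arrays measured the probe, the difference was 2.89 ± 0.22 (adjusted p = 0.000589), or 7.41-fold.

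The second Xiap probe, A_52_P933175, was dimmer. It read 0.0338 and 0.0238 in the input, 0.0185 and 0.0138 in the PABP1 IP, and 0.171 and 0.208 in the GFP IP. Again both GFP IP arrays were above all others, and these were the only arrays on which the probe was above background, so that it too was tested only through the group in which it was high. The GFP IP was at least 1.56-fold higher than the input (fitted 2.73 ± 0.27, adjusted p = 0.00206) and at least 2.96-fold higher than the PABP1 IP (fitted 3.56 ± 0.27, adjusted p = 0.000572). With no filter the adjusted p were 0.00934 and 0.00355. The files give both probes the same accession, AK147447, whereas the third probe, which was at background throughout, carries the RefSeq transcript of Xiap.

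The Xiap calls against the input rested on how background was removed. Before any subtraction, the spot of A_51_P301216 read 51.9 and 55.7 in the input, 55.9 and 64.2 in the PABP1 IP, and 128 and 141 in the GFP IP, over local backgrounds between 40.5 and 49.0. The spot of A_52_P933175 read 44.7 and 52.3, 53.3 and 53.9, and 82.1 and 88.3 in the same order. The GFP IP spots were brighter than the others before and after subtraction, on arrays that were brighter as a whole than the input arrays. With normexp, a model-based background correction, in place of the scanner software's subtraction, the differences from the input were 0.26 (adjusted p = 0.219) and -0.22 (adjusted p = 0.357) with an offset of 50, and 0.85 (adjusted p = 0.0706) and 0.19 (adjusted p = 0.774) with an offset of 1. Against the PABP1 IP, A_51_P301216 passed under both offsets (0.77 and 1.70), while A_52_P933175 did not (0.29 and 1.05). In the authors' deposited table, the 2 rows with this accession have group means of 7.02 and 3.37 in the GFP IP, 0.609 and 0.245 in the PABP1 IP, and 7.5e-05 and 0.122 in the input.

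Between the PABP1 IP and the input, A_51_P301216 differed by -0.15 ± 0.22 (adjusted p = 0.604), a sign that changed with the scaling (0.04 with the median of all probes, 0.05 after quantile normalization and 2.13 with spike-in probes). A_52_P933175 was called lower by 0.83 (adjusted p = 0.0454), but the probe was above background on none of those 4 arrays. That call was not kept in any of its 16 alternatives, and the sign turned after quantile normalization (0.11) and with spike-in scaling (1.45).

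Birc2, which encodes cIAP1, was lower in both precipitates. Its signal was 4.03 and 3.66 in the input, 1.41 and 1.27 in the PABP1 IP, and 1.36 and 1.54 in the GFP IP. The input arrays stood above the other 4, and the 2 precipitates overlapped. The difference was -1.41 ± 0.17 for the GFP IP (2.66-fold lower, adjusted p = 0.00297) and -1.52 ± 0.17 for the PABP1 IP (2.87-fold lower, adjusted p = 0.00177), although spike-in scaling reduced the first to -0.40 (adjusted p = 0.628) and turned the second to 0.76. The 2 precipitates differed by 0.11, with a 95% interval of -0.32 to 0.55, which spike-in scaling turned to -1.16 (adjusted p = 0.0471). In the authors' deposited table the order is the opposite, with means of 13.1 in the input, 18.8 in the PABP1 IP and 27.7 in the GFP IP. Over 8750 probes with a unique accession, the table's ratio of GFP IP to input had the opposite sign for 21.3%, and for 20.8% when the scanner signals were scaled to the median that the table's header names, so the deposited means do not follow from that scaling alone. The cause was not tested.

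Birc3, the gene of cIAP2, showed no difference past the threshold when arrays were scaled to their 75th percentile. With spike-in scaling, which shifts all probes, the PABP1 IP was called higher than the input (2.51, adjusted p = 7.6e-06) and the GFP IP lower than the PABP1 IP (-1.46, adjusted p = 0.0117). Probe A_51_P449171 read 0.272 and 0.303 in the input, 0.383 and 0.297 in the PABP1 IP, and 0.256 and 0.342 in the GFP IP. The 3 groups overlapped. The GFP IP differed from the input by 0.04 (95% interval -0.54 to 0.63, adjusted p = 0.887) and the PABP1 IP by 0.23 (95% interval -0.35 to 0.82, adjusted p = 0.440). The interval for the first leaves room for a change of -0.54 to 0.63 log2 units.

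Birc6 was lower in both precipitates, and lowest in the PABP1 IP. It read 0.842 and 0.825 in the input, 0.217 and 0.216 in the PABP1 IP, and 0.354 and 0.285 in the GFP IP, with no overlap between the groups. The PABP1 IP was 3.86-fold lower than the input (-1.95 ± 0.18, adjusted p = 0.00116), although spike-in scaling gave 0.33. The GFP IP was 2.63-fold lower (-1.39 ± 0.18, adjusted p = 0.00329), a call lost when spike-in probes set the scale (-0.39, adjusted p = 0.645) or the array median did (-0.82, adjusted p = 0.0795). The difference between the precipitates was 0.55 ± 0.18 (adjusted p = 0.0410), which spike-in scaling turned to -0.72. That last call was lost under normexp (0.05 and 0.24), with no filter (adjusted p = 0.171), within slide 1 (0.39, adjusted p = 0.172) and when GFP IP array 1, either PABP1 IP array or either input array was left out (adjusted p from 0.0897 to 0.171). In the authors' deposited table the input mean is 4.63, the PABP1 IP mean 3.20 and the GFP IP mean 5.33, so that the GFP IP stands above the input there.

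**Figure D2:**
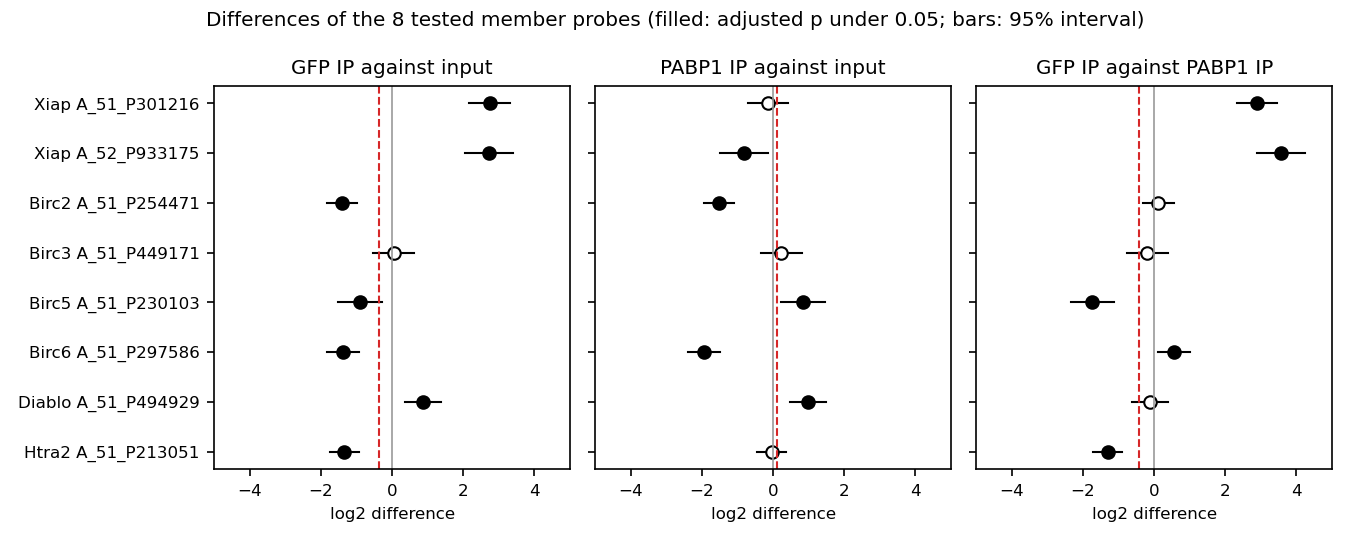
Log2 difference of each of the 8 tested probes in the 3 comparisons. Circles are fitted differences and bars their 95% intervals, filled circles have an adjusted p under 0.05, grey lines mark no difference and red dashed lines the median of all tested probes. Both Xiap probes lie to the right in the 2 comparisons with the GFP IP, as fitted values against inputs below background, where normexp background correction lowers them to 0.26 and -0.22.

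Survivin's gene, Birc5, was the only member with the PABP1 IP above the input and the GFP IP below it. It read 112 and 122 in the input, 182 and 238 in the PABP1 IP, and 74.0 and 53.1 in the GFP IP. None of the 3 groups overlapped. The GFP IP was 3.32-fold lower than the PABP1 IP (-1.73 ± 0.24, adjusted p = 0.00246), a call lost after quantile normalization (-0.63, adjusted p = 0.0919) and cyclic loess (-0.51, adjusted p = 0.168). Its difference from the input was smaller, at -0.90 ± 0.24 (adjusted p = 0.0284), with 0.11 under spike-in scaling and a log2 ratio of 0.13 between the means in the authors' deposited table. The call was lost under normexp (adjusted p = 0.374 and 0.254), the median of all probes (-0.32), quantile normalization (-0.48) and cyclic loess (-0.18), and without GFP IP array 2 (-0.66, adjusted p = 0.101), input array 1 (adjusted p = 0.101) or input array 2 (adjusted p = 0.123). The PABP1 IP was 1.78-fold higher than the input (0.83 ± 0.24, adjusted p = 0.0340), a call lost without PABP1 IP array 2 (0.64, adjusted p = 0.131), without input array 1 (adjusted p = 0.146) or 2 (adjusted p = 0.109), and within slide 1 (adjusted p = 0.0525). The median of all probes (adjusted p = 0.0693), quantile normalization (0.15), cyclic loess (0.32) and no filter (adjusted p = 0.105) also ended it.

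Among the antagonists, Diablo was higher in both precipitates. Probe A_51_P494929 read 6.25 and 5.25 in the input, 12.8 and 10.1 in the PABP1 IP, and 10.1 and 10.8 in the GFP IP. The precipitates overlapped with each other and lay above the input. The PABP1 IP was 1.99-fold higher than the input (0.99 ± 0.20, adjusted p = 0.0102), a call lost without input array 2 (adjusted p = 0.0713). The GFP IP was 1.82-fold higher (0.87 ± 0.20, adjusted p = 0.0173). Leaving out any 1 of the 4 arrays of that comparison gave differences of 0.74 to 0.99 with adjusted p between 0.0563 and 0.101. The 2 precipitates differed by -0.12 (95% interval -0.63 to 0.38), a sign that turned with the median of all probes (0.26), quantile normalization (0.32) and cyclic loess (0.52), while spike-in scaling gave -1.39 (adjusted p = 0.0163). The authors' deposited table has the same order against the input, with means of 41.9 in the input, 62.8 in the PABP1 IP and 126 in the GFP IP.

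Htra2, the second antagonist, was lower in the GFP IP. It read 42.6 and 39.9 in the input, 42.8 and 37.8 in the PABP1 IP, and 16.3 and 16.2 in the GFP IP. The GFP IP arrays were below all others, and input and PABP1 IP overlapped. The GFP IP was 2.53-fold lower than the input (-1.34 ± 0.16, adjusted p = 0.00295), a call lost when spike-in probes (-0.34, adjusted p = 0.697) or the array median (-0.76, adjusted p = 0.0504) set the scale. It was 2.47-fold lower than the PABP1 IP (-1.30 ± 0.16, adjusted p = 0.00169), a call lost with cyclic loess (-0.39, adjusted p = 0.0633). The PABP1 IP and the input differed by -0.04 (95% interval -0.45 to 0.38), with spike-in scaling giving 2.24. Means in the authors' deposited table are 251 in the input, 235 in the PABP1 IP and 114 in the GFP IP.

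Counted together, 7 of the 8 tested probes passed the threshold between the GFP IP and the input, 3 higher and 4 lower. Across all 21051 tested probes 52.9% passed, 20.9% higher and 32.0% lower, so a call was common on these arrays. The higher calls include both Xiap probes, tested only through the GFP IP. Of the 6 probes above background on all 6 arrays, 1 was higher and 4 were lower. The median difference of the 8 probes was -0.43, beside -0.36 over all tested probes. Between the PABP1 IP and the input, 5 of 8 passed, 2 higher and 3 lower, where 54.7% of all probes passed, 30.5% higher and 24.2% lower. The medians were -0.09 and 0.12. Between the GFP IP and the PABP1 IP, 5 of 8 passed, 3 higher and 2 lower, where 62.5% of all probes passed, 25.0% higher and 37.6% lower. Here the medians were 0.00 and -0.43. The arrays of the compared groups did not overlap for 7, 5 and 5 of the 8 probes in the same order, where this held for 81.7%, 78.5% and 81.1% of all probes. With calls this common, and 8 probes, the counts show nothing particular to these genes. The 3 comparisons share arrays and do not check each other.

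Directions on these arrays are relative, since recovered RNA was amplified and each array was scaled to itself. Setting the arrays level by their 8 spike-in probes moved the median tested probe by 1.01 log2 units in the GFP IP against input, by 2.28 in the PABP1 IP against input and by -1.27 between the precipitates. Spike-ins follow the amount of RNA put into labelling and not the amount in the cells. With them, 31.3% of all probes were called higher and 2.4% lower in the GFP IP against input, 83.6% and 2% in the PABP1 IP against input, and 5.61% and 63.3% between the precipitates. The median of all probes gave 27.7% and 10.6%, and cyclic loess 27.2% and 20.9%, in the GFP IP against input. Relative to the median tested probe, the difference between the GFP IP and the input was 1.23 for Diablo and 0.40 for Birc3. On the same scale it was -0.54 for Birc5, -0.98 for Htra2, -1.03 for Birc6 and -1.05 for Birc2.

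**Figure D3:**
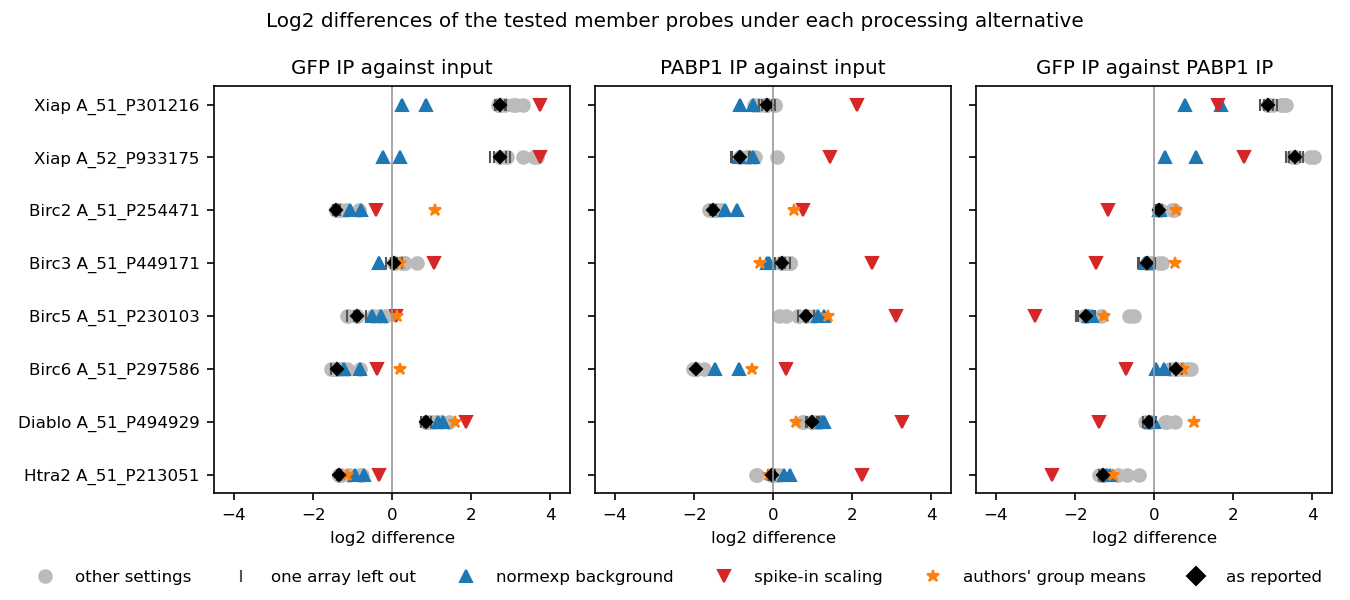
Log2 difference of each of the 8 tested probes under every processing alternative, in the 3 comparisons. Black diamonds are the reported values, ticks leave out 1 array, blue triangles use normexp background correction with an offset of 50 or 1, red triangles spike-in scaling, orange stars the authors' group means, and grey circles all other settings. Normexp brings both Xiap probes toward 0 in the 2 comparisons with the GFP IP, and spike-in scaling moves all members to the right against the input and to the left between the precipitates.

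The arrays lay on 2 slides. Slide 1 held both input arrays, PABP1 IP array 1 and GFP IP array 2, and slide 2 held the other two. Between GFP IP and PABP1 IP, the slides gave 3.21 and 2.57 for Xiap A_51_P301216, 3.49 and 3.63 for A_52_P933175, -1.78 and -1.69 for Birc5, -1.40 and -1.21 for Htra2, and 0.39 and 0.72 for Birc6, slide 1 first. Birc2 gave 0.12 and 0.10, Birc3 -0.16 and -0.22, and Diablo -0.23 and -0.01. Against the input, within slide 1 alone, the GFP IP differed by 2.85 and 2.87 for the Xiap probes, -1.32 for Birc2, -1.14 for Birc5, -1.55 for Birc6, 0.92 for Diablo, -1.35 for Htra2 and 0.25 for Birc3. The PABP1 IP differed there by -1.44 for Birc2, 0.64 for Birc5, -1.94 for Birc6, 1.15 for Diablo, 0.06 for Htra2 and 0.42 for Birc3, and by -0.36 and -0.61 for the Xiap probes. With slide as a block, the GFP IP calls against the input all passed, from an adjusted p of 0.00231 for Xiap A_52_P933175 to 0.0105 for Diablo.

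Around these 7 genes, 50 further genes of the pathway were looked up, of which 48 had a probe and 42 had a tested one (62 probes). Their probes passed the threshold 20 times higher and 17 times lower in the GFP IP against input, 25 and 12 times in the PABP1 IP against input, and 17 and 28 times between the GFP IP and the PABP1 IP. That is 37, 37 and 45 of 62, where 52.9%, 54.7% and 62.5% of all tested probes passed. With spike-in scaling the first count became 23 higher and 0 lower, and the second 58 higher and 0 lower. Leaving out input array 1, input array 2, GFP IP array 1 or GFP IP array 2 reduced the 37 calls of the first comparison to 11, 18, 21 and 23, and leaving out input array 2 reduced the 37 of the second to 20.

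The caspases that inhibitors of apoptosis hold, and the apoptosome that activates them, had 9 tested probes. In the GFP IP against input, 5 were higher and 1 lower, with a median of 1.09, which normexp changed to 3 higher and 3 lower with a median of -0.13. Of all tested probes, 20.9% were higher and 32.0% lower there, with a median of -0.36. Casp9, the initiator caspase of the mitochondrial route, was higher by 1.65 ± 0.23 (adjusted p = 0.00405). The 2 probes of Apaf1, the apoptosome scaffold, read 1.69 ± 0.45 (adjusted p = 0.0264) and 0.27 ± 0.35 (adjusted p = 0.545). Cycs, which encodes cytochrome c, was higher in the PABP1 IP than in the input by 1.76 ± 0.19, 1.44 ± 0.17 and 1.28 ± 0.25 with its 3 probes, and lower in the GFP IP than in the PABP1 IP by 2.66, 1.84 and 1.76, which is the direction of Birc5 and Htra2 in that comparison.

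Of the TNF receptor and NF-kB genes, through which cIAP1 and cIAP2 act, 24 probes were tested. In the GFP IP against input, 7 were higher and 8 lower, with a median of -0.04, where 20.9% of all tested probes were higher and 32.0% lower. This balance followed the processing: normexp gave 3 and 12, the median of all probes 7 and 1, and spike-in scaling 8 and 0. Casp8, the initiator caspase at death receptors, was at least 1.77-fold higher, but -0.39 under normexp. For Cyld, a deubiquitinase of the receptor complex, 1 probe was at least 4.70-fold higher, whereas the other read 0.70 ± 0.46 (adjusted p = 0.242). The higher probe was above background on both arrays of the GFP IP alone, so it was tested only through the group in which it was high. Traf2, which brings cIAPs to the receptor, was lower, at -1.62 ± 0.28 (adjusted p = 0.00722), in the direction of Birc2. In the PABP1 IP against input, 7 were higher and 6 lower (22 and 0 with spike-in scaling), and between the precipitates 6 were higher and 7 lower (3 and 17 with spike-in scaling). All tested probes split as 30.5% and 24.2%, and as 25.0% and 37.6%. Cyld was higher in the GFP IP than in the PABP1 IP by 3.17 ± 0.46 and 2.58 ± 0.37, with each probe above background on only 1 PABP1 IP array. Fadd, the adaptor of death receptors, was lower in that comparison by 1.71 with 1 probe and read -0.02 with the other.

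The partners of survivin in the chromosomal passenger complex had 4 tested probes. Between the precipitates, 3 of 4 were higher in the GFP IP and none was lower, while Birc5 was lower by 1.73, and with spike-in scaling 0 were higher and 1 was lower. Of all tested probes, 25.0% were higher and 37.6% lower in that comparison. Cdca8, which encodes borealin, was higher by 2.35 ± 0.34 and 1.45 ± 0.18, and Incenp, the scaffold of the complex, by 1.25 ± 0.18 (adjusted p = 0.00253), or -0.02 with spike-in scaling. Aurkb, its kinase, read -0.14 ± 0.18 (adjusted p = 0.524). Against the input the PABP1 IP had 1 of these probes higher and 3 lower (3 and 0 with spike-in scaling), and the GFP IP 2 higher and none lower. All tested probes split as 30.5% and 24.2%, and as 20.9% and 32.0%. The difference between Birc5 and its partners was not tested.

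Genes that gate the release of Diablo and Htra2 from mitochondria had 19 tested probes. In the PABP1 IP against input, 12 were higher and 1 lower, where 30.5% of all tested probes were higher and 24.2% lower. Both Bad probes and 1 Bcl2l11 probe among the higher calls were above background only on the PABP1 IP arrays. They were thus tested only through the group in which they were high, and were also called lower in the GFP IP than there. The median of the 19 probes was 1.05, beside 0.12 for all probes. The other scalings gave from 11 and 1 with cyclic loess to 19 and 0 with spike-in probes, and normexp gave 9 and 1 with a median of 0.27 (offset 50) and 7 and 0 with a median of 0.53 (offset 1). Bax, which opens the outer membrane, was higher by 2.28 ± 0.18 (adjusted p = 0.000966), and Bcl2l2, which holds it back, by 2.19 ± 0.16 and 1.06 ± 0.16. In the GFP IP against the PABP1 IP, 3 were higher and 13 lower, where 25.0% of all tested probes were higher and 37.6% lower. The median of the 19 probes was -1.16 there, beside -0.43 for all probes. Median scaling changed the counts to 3 and 7, cyclic loess to 4 and 9, and spike-in scaling to 1 and 16. The largest falls were those of Bax (-2.77 ± 0.18) and 1 Bcl2l2 probe (-2.70 ± 0.16), while the other Bcl2l2 probe read -0.85 ± 0.16. Against the input, the GFP IP had 5 higher and 5 lower, where 20.9% of all tested probes were higher and 32.0% lower. Among these lower calls, 1 Bad and 1 Bcl2l11 probe were above background on no GFP IP or input array. The Bcl2l1 probe among them, also called lower against the PABP1 IP, was above background on 1 input array and no GFP IP array. The 5 and 5 became 5 and 1 under median scaling, 6 and 1 with cyclic loess and 6 and 0 with spike-in scaling. Normexp gave 5 and 8 with an offset of 50 and 4 and 3 with an offset of 1 in the GFP IP against input. Pmaip1, the BH3-only protein Noxa, was higher there by 2.98 ± 0.20 (adjusted p = 0.00142). For Bcl2l11, the BH3-only protein Bim, 1 probe was higher there by 1.11 ± 0.24 (adjusted p = 0.0142) and another was at least 1.3-fold higher, with the input below background and -0.49 under normexp. Its other tested probe was called lower there (adjusted p = 0.0293), but was above background on no input or GFP IP array.

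**Figure D4:**
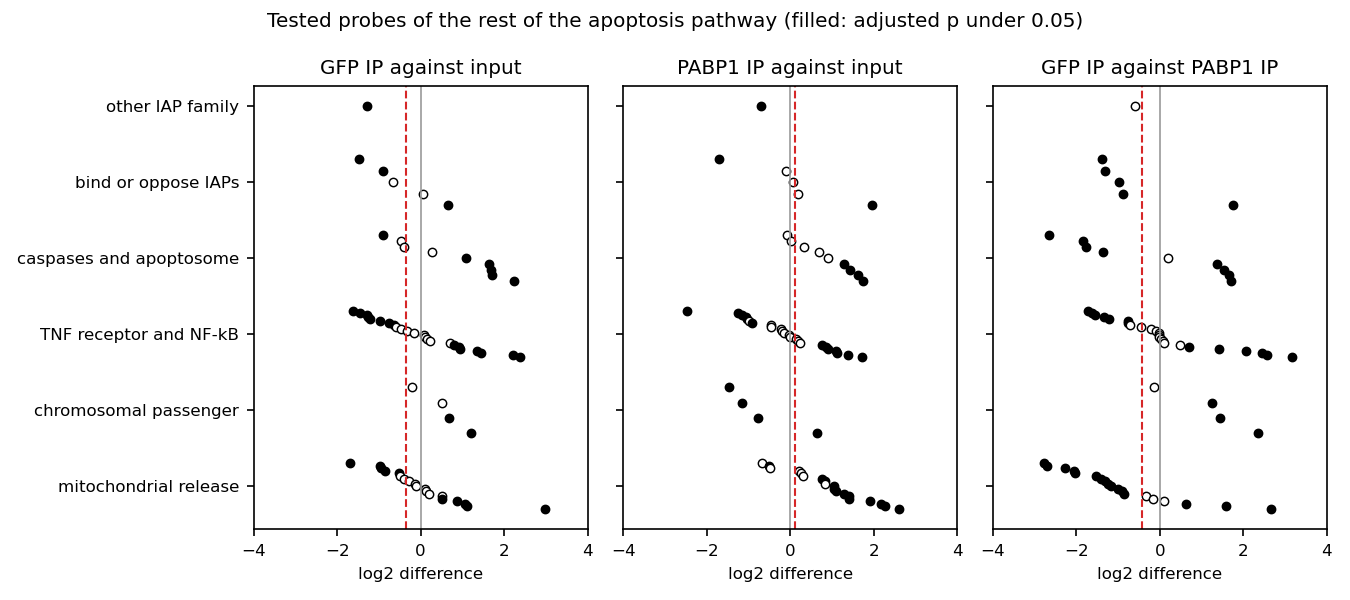
Log2 difference of each of the 62 tested probes of the surrounding pathway, by gene group, in the 3 comparisons. Filled circles have an adjusted p under 0.05, grey lines mark no difference and red dashed lines the median of all tested probes. The caspase and apoptosome probes lie mostly to the right in the GFP IP against input (5 higher, 1 lower, or 3 and 3 with normexp), and the probes for mitochondrial release to the left between the precipitates (3 higher, 13 lower, or 3 and 7 with the median of all probes), in a scaling on each array's 75th percentile. Of all tested probes, 20.9% were higher and 32.0% lower in the GFP IP against input, and 25.0% and 37.6% between the precipitates.

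Other genes that bind or oppose inhibitors of apoptosis gave 5 tested probes. Septin4, whose ARTS isoform binds XIAP, was lower in the GFP IP than in the input by 1.47 and than in the PABP1 IP by 1.39. Parl, a mitochondrial protease that processes Diablo, was higher in the PABP1 IP than in the input by 1.95 ± 0.20 and in the GFP IP by 0.65 ± 0.20 (adjusted p = 0.0421). The 2 probes of Gspt1 disagreed between the precipitates, at 1.76 and -0.87. Of the other family members only Birc7 was tested, and it was lower than the input in the GFP IP by 1.29 and in the PABP1 IP by 0.70. With spike-in scaling the first became -0.28, not past the threshold, and the second 1.58. No probe of Naip1, Naip2, Naip5 or Naip6 passed the filter.

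The genes whose profile over the 6 arrays came closest to each member were found by the Euclidean distance between log2 signals, each centred on its own mean, with the brightest tested probe standing for each gene. For Xiap A_51_P301216 these were Zfp275, at a distance of 0.236, and Asph, at 0.338, where the median distance to all such genes was 4.12. Birc2 was closest to Slc9a8 (0.130) and Hnrnpu (0.131), Birc6 to Ambra1 (0.103), and Diablo to H2ax (0.120). Birc5 was closest to Aasdhppt (0.145) and Htra2 to Setd4 (0.135). With 6 arrays in 3 groups, this likeness describes these arrays alone.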

How the data were processed

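The study measured RNA on 6 one-colour Agilent Mouse Whole Genome 4X44K arrays, in 3 groups of 2 taken from the sample titles. The authors' scanner files give the intensity of each spot and of its local background. Per the file headers, they also give a processed intensity, made with Agilent Feature Extraction 9.1.3.1 by background subtraction and detrending within the array, with surrogates for dim spots. Flags mark spots well above background, saturated (0 spots here) or outlying. The authors also deposited a table of group means and standard errors of signal, per its header background-subtracted and set to the median, with a quality score whose scale is not stated. The score and the standard errors entered no result, no test was run on the authors' means, and ratios of them were taken only where both were at least 1.

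Outlier and control spots were left out, log2 processed signals of a probe's spots were averaged, and each array's 75th percentile was subtracted. The filter asked that the 2 arrays of some group be well above background, and 21051 of 41174 probes passed it (15578 on all 6 arrays). limma 3.58.1 in R 4.3.3 (lmFit, eBayes) was fitted to the 6 arrays by group alone, which left 3 residual degrees of freedom. Each probe had a two-sided test, adjusted by Benjamini and Hochberg's method across the 21051 probes, with 0.05 as the threshold. Values after ± are limma's standard errors with 2 arrays a group. Where neither group was above background, the fold is left out. Genes were named as in the files or, where an accession matched, by their RefSeq symbol (GRCm38.p6), and no coordinate was used. With 2 arrays a group, the number of arrays limits the precision.

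All probes of the 7 genes are described. From the other 50 genes, up to 4 per gene group and comparison with the largest differences past the threshold could be named. The members and lists were chosen with earlier results of these data known. The replicate numbers were not used to pair the arrays, and the labels do not say whether same-numbered arrays share material. Deviations of same-numbered arrays correlated at -0.624 (GFP and PABP1 IP), -0.0196 (GFP IP and input) and 0.154 (PABP1 IP and input). Same-numbered GFP and PABP1 IP arrays lay on different slides, so these values cannot separate pairing from slide. In data simulated on 21051 probes for GFP IP against input, the test recovered 47 of 100 probes changed by 2 log2 units and 1 of 100 changed by 1, with 2 false calls. For GFP IP against PABP1 IP it recovered 45 of 100 and 0 of 100, with 1 false call. In the data 52.9% and 62.5% of tested probes passed in these 2 comparisons, far more than were changed in the simulation. Its recovery rates therefore do not carry over to the data. The alternatives were normexp background correction, other scalings (median of all probes, quantile, cyclic loess, spike-in probes), other filters, other rules for several probes of a gene, slide or replicate number as a block, slide 1 alone, each array left out and the authors' means. Normexp with an offset of 1 in place of 50 was added after seeing the data. Results for some single genes of the surrounding pathway are not reported here.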

Additional observations from a re-analysis of the deposited data

How the results depend on the processing

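Over 462 alternative values for the 8 tested probes, 349 kept their direction and their side of the threshold, 60 lost the call, 4 gained one, 37 changed sign and 12 ratios of the authors' means moved by more than the spread. Xiap A_51_P301216 kept its call in 16 of 18 alternatives against the input and 18 of 18 against the PABP1 IP, Birc2 in 18 of 19 against the input in both precipitates, and Htra2 in 17 of 19 (GFP IP against input). Birc5 kept its call against the input in 9 (GFP IP) and 10 (PABP1 IP) of 19. These tallies leave out the authors' means, on which no test was run. Those means gave Birc2 the opposite direction against the input in both precipitates (1.08 in the GFP IP and 0.52 in the PABP1 IP). The probe counts that moved by over 1.5 times were these. For the members in GFP IP against input (7), normexp gave 4 with either offset, the median of all probes 4 and spike-in scaling 3, and leaving out 1 array 5 to 7. For PABP1 IP against input (5), the median of all probes, quantile normalization, cyclic loess, slide 1 alone and the replicate block each gave 3, and leaving out 1 array 2 to 4. For GFP IP against PABP1 IP (5), normexp gave 3 with either offset, cyclic loess 3, and the filter on all 6 arrays 3, with fewer probes tested, and leaving out 1 array 4 to 5. For the surrounding pathway in GFP IP against input (37), normexp with an offset of 1 gave 21, the median of all probes 24, spike-in scaling 23, the mean of a gene's probes 22 (fewer features tested), and leaving out 1 array 11 to 35. In PABP1 IP against input (37), normexp with an offset of 1 gave 18, spike-in scaling 58, 1 probe per gene 23 (fewer features tested), and leaving out 1 array 20 to 34. In GFP IP against PABP1 IP (45), the mean of a gene's probes gave 28, and leaving out 1 array 37 to 44.

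Signs changed as follows. In GFP IP against input, normexp gave -0.22 for Xiap A_52_P933175 and -0.34 (offset 50) and -0.33 (offset 1) for Birc3, spike-in scaling 0.11 for Birc5, and the authors' means 1.08 for Birc2, 0.13 for Birc5 and 0.20 for Birc6. Birc3 was -0.17 to 0.25 without 1 array. In PABP1 IP against input, Xiap A_51_P301216 gave 0.039 (median of all probes), 0.049 (quantile) and 2.13 (spike-in), and -0.36 to 0.058 without 1 array, Xiap A_52_P933175 0.11 (quantile) and 1.45 (spike-in), Birc2 0.76 (spike-in) and 0.52 (authors' means), Birc3 -0.16 (normexp, offset 50) and -0.10 (offset 1), and Birc6 0.33 (spike-in). Htra2 gave 0.42 and 0.27 (normexp, offsets 50 and 1), 0.15 (median), 2.24 (spike-in), 0.0068 (slide as a block), 0.055 (slide 1 alone) and -0.13 to 0.055 without 1 array. In GFP IP against PABP1 IP, spike-in scaling gave -1.16 for Birc2 and -0.72 for Birc6, the median of all probes 0.20 and cyclic loess 0.12 for Birc3 (-0.40 to 0.020 without 1 array), and Diablo 0.26 (median), 0.32 (quantile), 0.52 (cyclic loess) and -0.29 to 0.042 without 1 array. The cause was not tested. The replicate number as a block, which the labels do not tie to shared material, changed the call of Birc5 against the input in GFP IP (adjusted p = 0.0628) and PABP1 IP (0.0718) and of Birc6 between the precipitates (0.0621).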
